A study of Mus musculus with 16 samples.

Results

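The genes described here are 10 that handle iron in the liver or set the level of hepcidin, the hormone that limits iron entry into blood: Hamp, Hamp2, Bmp6, Hfe2, Id1, Smad7, Trf, Tfrc, Tfr2 and Slc40a1. They were chosen by name, as the probes whose gene name in the scanner files equals one of the 10. All 10 were above background and belong to the 20404 genes that could be tested. They are covered by 15 probes, and each gene is read here from its brightest probe, which was above background on all 16 arrays.

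Livers came from 16 conventional (Conv) C57BL/6 male mice that had never been given antibiotics, entered the study at 6 weeks of age, ate normal chow (NC) for 4 weeks and were 10 weeks old at sampling. The Conv+LM group (n = 5) had received caecal content of lean mice, and the Conv+OM(HFD) group (n = 5) caecal content of mice made obese by a high-fat diet. Controls (Conv+PBS, n = 6) are named as not transplanted in their sample labels, whereas the treatment protocol and the study's methods give them the vehicle, reduced PBS. The question behind the comparisons was how gut microbiota from lean or obese donors changes the liver of its recipient. The recipients had not been cleared of their own microbiota. Each transplant was a pool of caecal content from several donors, so the effect of a transplant and of its pool cannot be told apart. The study's methods state that mice were kept in groups, but the labels do not tie mice to cages, and cage and treatment cannot be told apart. Mice had fasted for 6 hours and lived on an inverted light cycle. In whole liver, fewer cells of a type and less RNA per cell cannot be told apart.

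Hepcidin is made by hepatocytes and released into blood. It binds ferroportin, the only known cellular iron exporter, and causes its removal, so that gut cells and macrophages hold back iron. Its gene is driven by 2 main inputs: bone morphogenetic protein (BMP) signals through SMAD proteins, which report iron stores, and interleukin-6 acting through STAT3, which reports inflammation. Id1 and Smad7 are switched on by the same BMP signal and serve as its readouts in liver. The mouse carries a second hepcidin gene, Hamp2, next to Hamp, and its product is not known to act on iron as hepcidin does.

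The hepcidin probes are shown because the copies are close neighbours in sequence and a probe could pick up both transcripts. Each probe is 60 bases long and covers the end of the coding sequence and the first bases after the stop codon. In the mm9 build named in the scanner files they lie on the minus strand of chromosome 7, at chr7:31727490-31727549 for Hamp and chr7:31707520-31707579 for Hamp2. With the probes shifted by 1 base, 42 of 59 bases were identical and 17 differed, and capitals mark those that differ.
Hamp probe: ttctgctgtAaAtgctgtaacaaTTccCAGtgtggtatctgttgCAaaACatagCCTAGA
Hamp2 probe: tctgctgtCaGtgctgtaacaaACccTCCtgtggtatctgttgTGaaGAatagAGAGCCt
The probes therefore differ at 17 positions, and the part that cross-hybridisation takes in the values of either gene was not tested.

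The promoters are shown because the BMP and STAT3 inputs act there. RefSeq promoters of the GRCm38.p6 build, which hold 250 bases before and 50 after the start of transcription, were found for 5 of the 10 genes. Over the 247 bases upstream that could be set against each other, the Hamp and Hamp2 promoters were identical at 227, or 91.9%. The stretches printed here, of 110 bases on the minus strand, lie at chr7:30944069-30944178 for Hamp and chr7:30924218-30924327 for Hamp2. Capitals mark matches to the letters GGCGCC, the core of the BMP-responsive element of the hepcidin gene, and to TTCTTGGAA, its STAT site, each searched on both strands.
Hamp promoter: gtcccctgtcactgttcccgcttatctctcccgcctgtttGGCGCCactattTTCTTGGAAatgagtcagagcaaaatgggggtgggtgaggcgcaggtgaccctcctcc
Hamp2 promoter: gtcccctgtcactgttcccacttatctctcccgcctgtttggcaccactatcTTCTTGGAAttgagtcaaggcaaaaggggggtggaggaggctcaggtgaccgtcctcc
The letters GGCGCC begin 109 bases before the start in Hamp and have no match in this window of Hamp2. The letters TTCTTGGAA begin 97 bases before the start in Hamp and 94 in Hamp2. Of all 32851 promoters in the table, 11.9% hold GGCGCC and 0.417% hold TTCTTGGAA. Among the other iron genes with a promoter in the table, GGCGCC was also found for Tfrc. A match is a description of letters, and binding was not measured.

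All 10 genes were measured in every mouse, and levels are given as log2 intensity with the 75th percentile of each array set to 0. No level is set against that of another probe, since probes differ in brightness for the same amount of RNA. Depth has no meaning for arrays, and precision is limited by the number of arrays. The 75th percentile lay between 223.1 and 323.7 intensity units, and 49.7% to 58.3% of probes were above background. Each group was spread over both slides, which serve as a batch. Slide 1 held Conv+PBS mice 2, 3 and 5, Conv+LM mice 13 and 14, and Conv+OM(HFD) mice 25, 28 and 30. Slide 2 held Conv+PBS mice 1, 4 and 6, Conv+LM mice 15, 16 and 17, and Conv+OM(HFD) mice 26 and 29. Values within 1 slide thus rest on few mice. The 6 hepatocyte markers were all above background and their mean level lay between 8.30 and 8.67 in every mouse, with overlapping groups and median log2 differences of 0.09 for Conv+OM(HFD) and 0.01 for Conv+LM from Conv+PBS, the latter from -0.03 to 0.05 over fits that left out 1 mouse. All 6 means were above those of the controls in Conv+OM(HFD) and 3 in Conv+LM, with none at an unadjusted limma p under 0.05. Mouse 16 of the Conv+LM group stood apart in the hepcidin genes and had the highest red blood cell marker mean. Mouse 25 of the Conv+OM(HFD) group stood apart in acute phase genes, and mouse 1 of the Conv+PBS group in Kupffer cell and neutrophil markers.

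Hepcidin itself did not separate the groups. Hamp in the Conv+PBS mice ran from 7.06 to 7.65 with a median of 7.20. The Conv+LM mice had 7.78, 7.60, 7.56, 5.67 and 7.88, and the Conv+OM(HFD) mice 6.90, 7.98, 7.09, 7.71 and 7.92. The groups overlapped, and mouse 16 of the Conv+LM group was the lowest of all 16. The log2 difference of Conv+OM(HFD) from Conv+PBS was 0.23 ± 0.34 (SE; 95% interval -0.49 to 0.95), and that of Conv+LM from Conv+PBS was 0.00 ± 0.34 (-0.71 to 0.72). Without mouse 16 the latter became 0.41, the highest value over the fits that left out 1 mouse. The lowest unadjusted limma p over those fits was 0.0635. In neither comparison did Hamp pass the test, with two-sided exact permutation p = 0.325 and p = 0.926. Between the transplanted groups, Conv+OM(HFD) minus Conv+LM was 0.22 ± 0.35 for Hamp, with -0.38 on slide 1 and 0.81 on slide 2, and -0.18 without mouse 16.

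Hamp2 varied most. In the Conv+PBS mice it ran from 2.98 to 5.17 with a median of 4.79. It was 5.15, 5.17, 4.12, 1.51 and 3.83 in the Conv+LM mice and 4.01, 4.84, 3.12, 2.42 and 4.65 in the Conv+OM(HFD) mice. Its lowest value again belonged to mouse 16 of the Conv+LM group, and the groups overlapped. The log2 difference from Conv+PBS was -0.73 ± 0.63 (SE) for Conv+OM(HFD), with a 95% interval from -2.06 to 0.60, and -0.58 ± 0.63 for Conv+LM, with an interval from -1.91 to 0.75. Without mouse 16 the Conv+LM difference was 0.036. The Conv+OM(HFD) difference ran from -1.04 without Conv+PBS mouse 4 to -0.38 without Conv+OM(HFD) mouse 29, and was -0.93 on slide 1 and -0.59 on slide 2, where the unadjusted limma p was 0.0377 and 0.586. Between the transplanted groups Hamp2 differed by -0.15 ± 0.65 (SE), with -1.24 on slide 1 and 0.47 on slide 2, where the unadjusted limma p was 0.0182 and 0.662. Between slides the Conv+LM difference was 0.31 on slide 1 and -1.06 on slide 2, the slide that held mouse 16. Over all 16 mice Hamp2 spanned a 12.7-fold range and Hamp a 4.97-fold range. The SD of Hamp2 within groups was 1.12, larger than that of 98.5% of all genes, and that of Hamp was 0.60, larger than that of 89.4%, against a median SD of 0.24 over all genes.

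**Figure D1:**
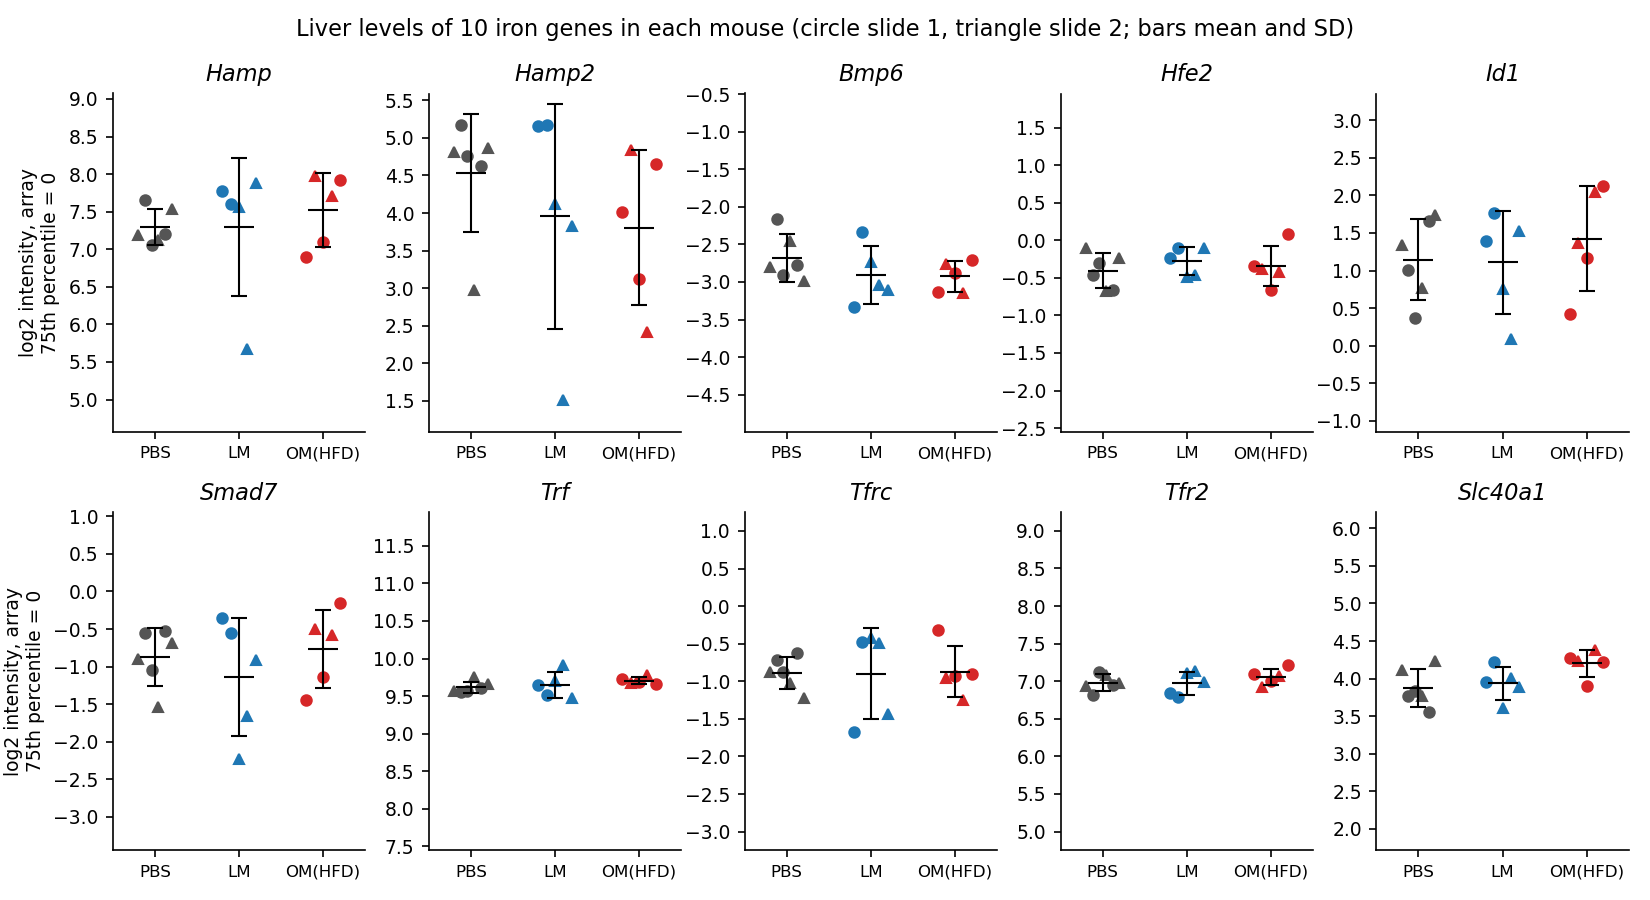
Log2 intensity (vertical axis, array 75th percentile at 0) of each of the 10 genes in each mouse of the PBS (n = 6), LM (n = 5) and OM(HFD) (n = 5) groups; circles are slide 1, triangles slide 2, and bars show the mean and SD. All panels span the same height, so that Hamp2 spreads widest, Trf and Tfr2 least, and the LM mouse at 5.67 for Hamp and 1.51 for Hamp2 lies below all others.

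The BMP ligand and its co-receptor passed the test in no comparison. Bmp6, which encodes the ligand that liver endothelial cells release when iron is high, was a dim probe at -2.99 to -2.16 in the Conv+PBS mice, with a median of -2.79. It lay at -3.33, -2.33, -2.74, -3.04 and -3.10 in the Conv+LM mice and at -3.13, -2.76, -2.89, -3.14 and -2.71 in the Conv+OM(HFD) mice. Both transplanted groups had a lower mean than Conv+PBS, by log2 differences of -0.24 ± 0.18 (SE) for Conv+OM(HFD) and -0.23 ± 0.18 for Conv+LM, with exact permutation p = 0.165 and p = 0.299. These comparisons share the Conv+PBS mice. With normexp background correction the differences of this dim probe shrank to -0.05 and -0.08, and without Conv+PBS mouse 2, its highest value, they were -0.14 and -0.12. Without mouse 14 of the Conv+LM group, its highest, the second was -0.37 with an unadjusted limma p of 0.0408. Hfe2, now named Hjv, encodes hemojuvelin, the BMP co-receptor of hepatocytes. Its levels ran from -0.67 to -0.11 in Conv+PBS, from -0.49 to -0.10 in Conv+LM and from -0.66 to 0.08 in Conv+OM(HFD), and the largest of its 3 differences was 0.13 ± 0.14 (SE), between Conv+LM and Conv+PBS.

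The BMP target genes varied as widely between mice as Hamp did. Id1, an inhibitor of helix-loop-helix transcription factors, ran from 0.37 to 1.74 in the Conv+PBS mice, with a median of 1.17. Values were 1.40, 1.77, 0.75, 0.09 and 1.53 in the Conv+LM mice and 0.42, 1.37, 1.17, 2.05 and 2.12 in the Conv+OM(HFD) mice. The lowest value was that of mouse 16 of the Conv+LM group and the highest 2 were from Conv+OM(HFD) mice, and the groups overlapped. Smad7, an inhibitory SMAD that dampens the pathway, ran from -1.54 to -0.53 in Conv+PBS, with a median of -0.79. Its values were -0.35, -0.55, -2.23, -1.65 and -0.92 in Conv+LM and -1.44, -0.50, -1.14, -0.58 and -0.15 in Conv+OM(HFD). The log2 difference of Conv+OM(HFD) from Conv+PBS was 0.28 ± 0.36 (SE) for Id1 and 0.11 ± 0.32 for Smad7. For Conv+LM against Conv+PBS the differences were -0.04 ± 0.36 and -0.27 ± 0.32. Between the transplanted groups, Conv+OM(HFD) minus Conv+LM was 0.32 ± 0.37 for Id1 and 0.38 ± 0.34 for Smad7. Both of these last differences ran in opposite directions on the slides, with -0.35 on slide 1 and 0.92 on slide 2 for Id1 and with -0.46 and 1.06 for Smad7, as did those of Hamp and Hamp2. The within-group SD of Id1 was larger than that of 91.0% of all genes and that of Smad7 larger than that of 88.5%.

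Transferrin and its hepatocyte receptor were the steadiest of the 10 genes. Trf encodes transferrin, the iron carrier of plasma, and its 16 values spanned a 1.36-fold range, from 9.48 to 9.92. The value of 9.92 belonged to mouse 16 of the Conv+LM group. Tfr2, the hepatocyte receptor that senses iron-loaded transferrin and feeds into hepcidin control, spanned a 1.34-fold range, from 6.79 to 7.21. Within groups, only 6.06% of all genes had a smaller SD than Trf and 10.4% a smaller SD than Tfr2. The widest 95% interval among their differences between groups was -0.10 to 0.27, for Tfr2 between Conv+OM(HFD) and Conv+LM. Tfrc, the receptor by which cells take up transferrin iron and whose mRNA is stabilised when cells lack iron, ran from -1.23 to -0.63 in Conv+PBS, with a median of -0.87. It was -1.68, -0.48, -0.42, -0.49 and -1.44 in Conv+LM and -0.32, -0.95, -0.94, -1.25 and -0.91 in Conv+OM(HFD). The group means of Tfrc were within 0.03 of each other on the log2 scale. The other Tfrc probe followed the one used here poorly across mice (r = 0.14, n = 16 mice), so the mouse-to-mouse values of Tfrc depend on the probe.

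Ferroportin was the gene with the clearest difference. Slc40a1, which encodes it, ran from 3.55 to 4.24 in the Conv+PBS mice, with a median of 3.80. It was 3.95, 4.22, 3.62, 4.01 and 3.89 in the Conv+LM mice and 4.28, 4.23, 3.91, 4.38 and 4.22 in the Conv+OM(HFD) mice. All 5 Conv+OM(HFD) values lay above the median of Conv+PBS and 2 of them above its highest value, and the other 3 fell within its range. The means were 4.205 ± 0.18 (SD, n = 5) and 3.88 ± 0.25 (SD, n = 6), a 1.25-fold difference. The log2 difference was 0.33 ± 0.13 (SE; 95% interval 0.04 to 0.61), with unadjusted limma p = 0.0261, adjusted p = 0.9999 and an exact two-sided permutation p = 0.039. On slide 1 it was 0.42 and on slide 2 it was 0.27. Leaving out Conv+PBS mouse 5, Conv+OM(HFD) mouse 25 or Conv+OM(HFD) mouse 29 took the unadjusted limma p above 0.05, with a highest p of 0.0675 and a log2 difference between 0.26 and 0.40 over the fits that left out 1 mouse. The other Slc40a1 probe gave 0.24 with limma p = 0.134 and correlated with the first at r = 0.35 across the 16 mice.
Against Conv+LM, Slc40a1 was 0.27 ± 0.14 (SE) higher in the Conv+OM(HFD) mice (exact permutation p = 0.0714), and the other probe gave 0.38 (unadjusted limma p = 0.0321). The slides did not give the same size, with 0.05 on slide 1 and 0.47 on slide 2. Conv+LM differed from Conv+PBS by 0.06 ± 0.13, with 0.36 on slide 1 and -0.20 on slide 2. In liver, ferroportin is made by Kupffer cells as well as by hepatocytes. In Conv+OM(HFD), the means of all 7 Kupffer cell markers were below those of the controls, with a median log2 difference of -0.15 and none at an unadjusted limma p under 0.05. Their mean level ran from 0.34 to 1.76 in the Conv+OM(HFD) mice and from 0.45 to 2.94 in the Conv+PBS mice, where mouse 1 had 2.94 and the next highest 1.13. Without mouse 1 the direction turned, with 6 of the 7 markers above the controls and a median of 0.18. Without Conv+OM(HFD) mouse 26 it was 4 of 7, with a median of 0.02, and without Conv+OM(HFD) mouse 30 it was 1 of 7, with a median of -0.05. The Slc40a1 difference without each of these mice lay within the range given above. Against Conv+LM, the same 7 markers all had higher means in Conv+OM(HFD), with a median of 0.32 and none at an unadjusted limma p under 0.05, the direction that Slc40a1 had there. Without mouse 25 of the Conv+OM(HFD) group that median was 0.13. In Conv+LM all 7 means were below those of the controls, with a median of -0.51 and a mean level from 0.09 to 0.94, and without mouse 1 of the Conv+PBS group 6 were, with a median of -0.22. Their part in the Slc40a1 differences was not tested.

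**Figure D2:**
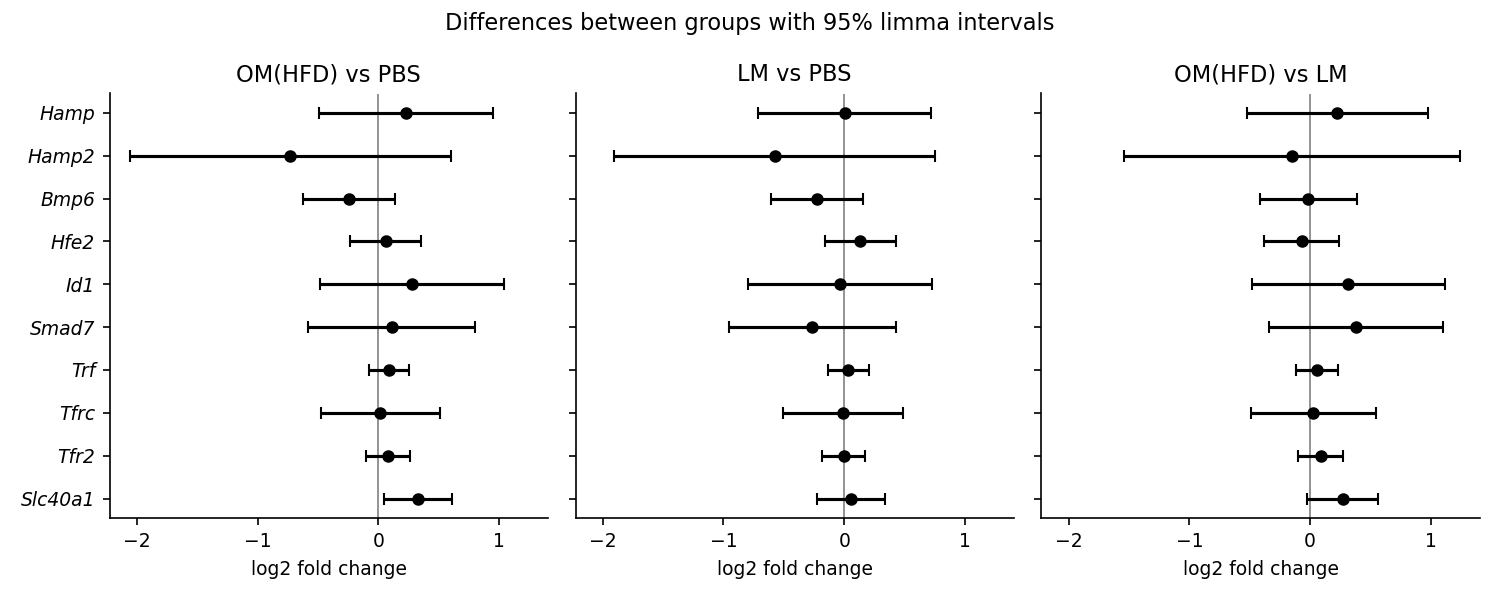
Log2 difference (horizontal axis) between group means for each of the 10 genes, in 3 comparisons; points are limma estimates and bars their 95% intervals. The interval of Slc40a1 between OM(HFD) and PBS, from 0.04 to 0.61, is the one that does not include 0.

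Counted over the 10 genes, Conv+OM(HFD) had the higher mean than Conv+PBS in 8 and the lower in 2, and 1 gene, Slc40a1, had an unadjusted limma p under 0.05, where 3.23% of all 20404 genes did. After Benjamini-Hochberg adjustment over all genes none of the 10 passed, and 0% of all genes did. Conv+LM had the higher mean than Conv+PBS in 4 genes and the lower in 6, with 0 of 10 at an unadjusted limma p under 0.05 against 3.94% of all genes, and again 0 of 10 after adjustment against 0%. Between Conv+OM(HFD) and Conv+LM, 7 were higher and 3 lower, with 0 of 10 at an unadjusted limma p under 0.05 against 2.7% of all genes and 0 of 10 after adjustment against 0%. In none of the 3 comparisons did any of the 10 genes have groups that did not overlap, against 0.235%, 0.279% and 0.456% of all genes in the same order. The median log2 difference of the 10 genes was 0.08, -0.01 and 0.07 in these 3 comparisons, beside 0.00, -0.01 and 0.01 over all genes. The intervals above leave room for differences in Hamp of up to 0.97 and in Hamp2 of up to 2.06 on the log2 scale.

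Across mice, the highest r of Hamp among the relations examined was with Id1, and no relation passed after adjustment. Relations were taken over 16 mice after subtracting each group's mean, with permutations within groups, for 52 pairs chosen for their roles. The smallest Benjamini-Hochberg adjusted p was 0.081. Hamp correlated with Id1 at Pearson's r = 0.71 (permutation p = 0.005, adjusted p = 0.081) and Spearman's rho = 0.62 (permutation p = 0.020, adjusted p = 0.231). On slide 1 r was 0.69 and on slide 2 it was 0.72. Leaving out the 2 mice farthest from the median of Hamp, Conv+LM mouse 16 and Conv+OM(HFD) mouse 25, gave r = 0.45, and leaving out mouse 16 alone gave r = 0.63. Hamp with Smad7 gave r = 0.56 (permutation p = 0.081, adjusted p = 0.264) and rho = 0.71 (permutation p = 0.005, adjusted p = 0.125), r = 0.55 without those 2 mice and r = 0.64 without mouse 16. For this pair the slides differed, with r = 0.93 on slide 1 and r = 0.25 on slide 2.
Id1 and Smad7, the readouts of the pathway, gave r = 0.75 (permutation p = 0.003, adjusted p = 0.081) and rho = 0.76 (permutation p = 0.003, adjusted p = 0.125), with r = 0.68 without the 2 farthest mice, 0.88 on slide 1 and 0.65 on slide 2. Smad6, another inhibitory SMAD, and Atoh8, a BMP-responsive transcription factor, correlated with Hamp at r = 0.49 and 0.47, with r = 0.20 and 0.29 without the 2 farthest mice and adjusted p = 0.264 for each. Bmp6 itself had r = 0.21 with Hamp (permutation p = 0.557, rho = 0.13), 0.08 with Id1 and 0.03 with Smad7. The adjusted p was 0.724, 0.913 and 0.950 for these 3 pairs.

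Set against every gene on the array, Id1 ranked 20th of 20403 by its r with Hamp, Hamp2 27th, Smad7 166th and Smad6 375th. Id2 and Id3, close relatives of Id1, ranked 62nd and 214th. Without mouse 16 of the Conv+LM group, Id1 ranked 136th and Smad7 133rd, while Hamp2 fell to 3198th, Smad6 to 4650th, Id2 to 1895th and Id3 to 2360th. These ranks describe 16 mice and share their libraries, and they carry no test. The 5 genes most like Hamp by r were a transcript that the array names only by its position (r = 0.86), Zmiz2 (0.83), another transcript named only by position (0.82), Gsta4 (0.80) and Ddx39b (0.79). Without mouse 16 the first 2 of these had r = 0.90 and 0.81 and ranked 1st and 8th, whereas the others had 0.64, 0.63 and 0.47 and ranked 125th, 139th and 1135th. The 5 most like Id1 were Lzts2 (0.90), Gm10387 (0.86), Id3 (0.85), a transcript with an Ensembl identifier alone (0.85) and Ralgapb (0.83), and without mouse 16 all 5 kept an r with Id1 between 0.81 and 0.90.

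Hamp and Hamp2 correlated at r = 0.70 (permutation p = 0.034, adjusted p = 0.252) and rho = 0.60 (permutation p = 0.029, adjusted p = 0.250). Without mouse 16 of the Conv+LM group r fell to 0.32 while rho was 0.55, and r was 0.46 without the 2 farthest mice. It was 0.71 on slide 1, which did not hold mouse 16, and 0.75 on slide 2. Hamp2 followed Id1 less closely than Hamp did, at r = 0.41 (permutation p = 0.165), and r was -0.01 without its 2 farthest mice, Conv+PBS mouse 4 and Conv+LM mouse 16. The difference between the 2 correlations was not tested. Hamp2 with Smad7 gave r = 0.56 (adjusted p = 0.264) and with Hfe2 r = 0.54 (adjusted p = 0.252).

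Trf had the lowest r with both hepcidin genes among the 10 genes, and 1 mouse carried much of its size. Trf had r = -0.70 with Hamp (permutation p = 0.039, adjusted p = 0.252, rho = -0.48) and r = -0.75 with Hamp2 (permutation p = 0.007, adjusted p = 0.090, rho = -0.55). Without mouse 16 of the Conv+LM group, which had the highest Trf and the lowest Hamp and Hamp2, these became -0.21 and -0.51. Trf then still had the lowest r with Hamp2 but not with Hamp. On slide 1, which did not hold that mouse, r was -0.27 with Hamp and -0.18 with Hamp2. Tfrc and Tfr2 had r = -0.49 and -0.47 with Hamp, with adjusted p = 0.338 and 0.314, and -0.45 and -0.24 without mouse 16. Slc40a1 had r = 0.04 with Hamp (permutation p = 0.869), which became 0.25 without mouse 16 and 0.39 without the 2 farthest mice. Mouse 16 also had the highest mean of the 6 red blood cell markers measured, 5.31 against 3.37 to 5.02 in the other mice, and its part in the values of that mouse was not tested.

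**Figure D3:**
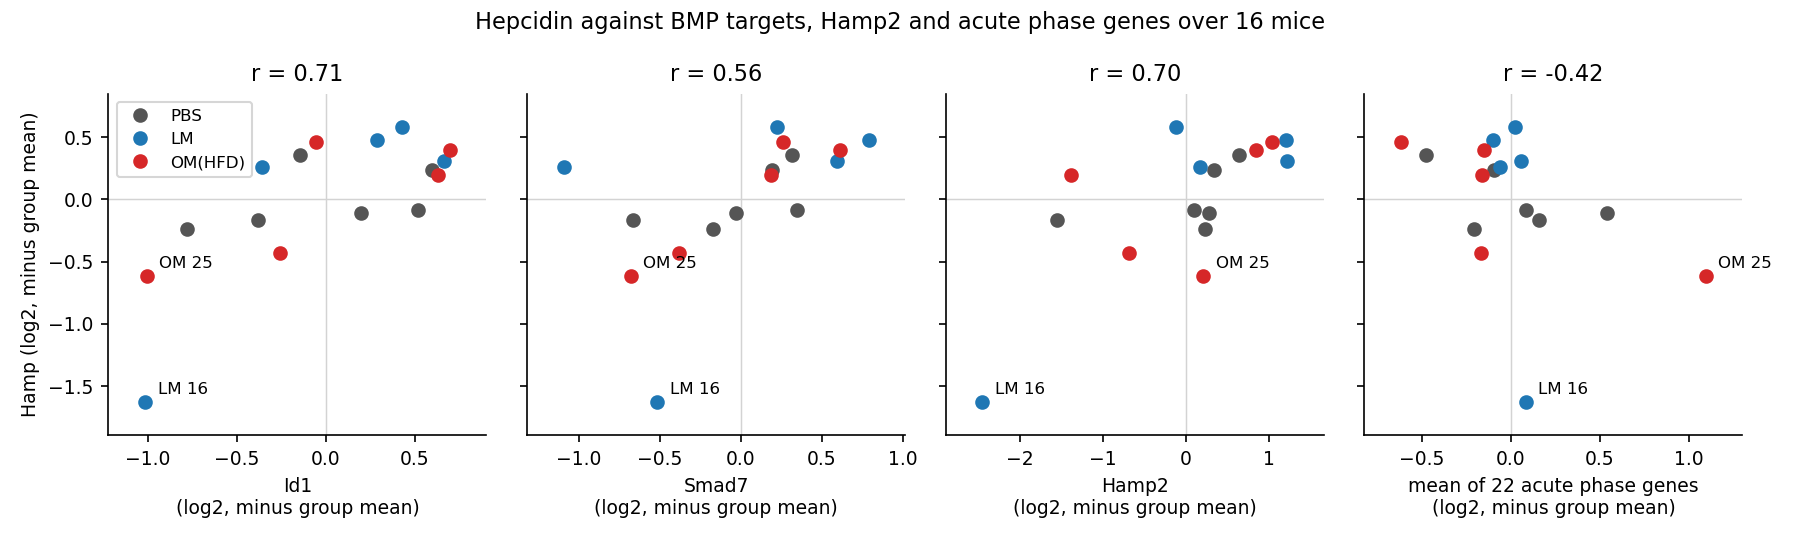
Hamp (vertical axis) against Id1, Smad7, Hamp2 and the mean of 22 acute phase genes (horizontal axes), all in log2 intensity minus the mouse's group mean; each point is a mouse and r is Pearson's over 16 mice. Mouse 16 of the LM group lies lowest in Hamp in every panel, and mouse 25 of the OM(HFD) group lies far to the right in acute phase genes with Hamp below its group mean.

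The acute phase and interleukin-6 signalling genes examined had negative correlations with Hamp, and none passed after adjustment. The acute phase response is the liver's output of plasma proteins under interleukin-6, of which hepcidin is also a part. The mean of 22 acute phase and interleukin-6 signalling genes had r = -0.42 with Hamp (permutation p = 0.004, adjusted p = 0.081) and rho = -0.41 (permutation p = 0.071, adjusted p = 0.359). It was -0.64 on slide 1 and -0.29 on slide 2, and -0.45 without the 2 farthest mice. Mouse 25 of the Conv+OM(HFD) group had the highest mean, 6.01, where the other 15 mice ran from 4.19 to 5.21, and its Saa1, an acute phase protein that rises steeply in inflammation, was 9.04 where the others ran from 3.81 to 6.55. Its Hamp, 6.90, was the lowest of its group. Without this mouse r was -0.30 (permutation p = 0.0527), and without mouse 16 of the Conv+LM group, which had low Hamp at an acute phase mean of 4.69, it was -0.70 (permutation p = 0.0131). The relation thus took values between -0.70 and -0.30 over the 16 sets that left out 1 mouse each, and was negative in all of them.
The single genes of this kind also had negative values of r. Saa1 and Saa2, serum amyloid A, had r = -0.35 and -0.31 with Hamp, Lcn2, an iron-sequestering protein that captures bacterial siderophores, -0.34, Orm2, an acid glycoprotein, -0.34, and Fgb, a fibrinogen chain, -0.52. Socs3, the feedback inhibitor that STAT3 switches on, had r = -0.22. The adjusted p was 0.252 for Fgb, 0.264 for Saa1 and Lcn2, 0.326 for Saa2, 0.338 for Orm2 and 0.724 for Socs3. Without mouse 25 of the Conv+OM(HFD) group r was -0.15 for Saa1, -0.08 for Saa2, -0.14 for Lcn2, -0.14 for Orm2, -0.43 for Fgb and -0.23 for Socs3. Without mouse 16 of the Conv+LM group it was -0.71, -0.70, -0.62, -0.66, -0.59 and -0.31 in the same order, so the size of these values depends on which of the 2 mice is kept. Of all genes, 1.49% had a lower r with Hamp than Fgb and 7.66% a lower r than Saa1. With Hamp2 the acute phase mean gave r = -0.15 (permutation p = 0.612), with Id1 -0.29 (permutation p = 0.360) and with Smad7 -0.39 (permutation p = 0.087). Il6 itself was not above background on enough arrays to be tested.

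**Figure D4:**
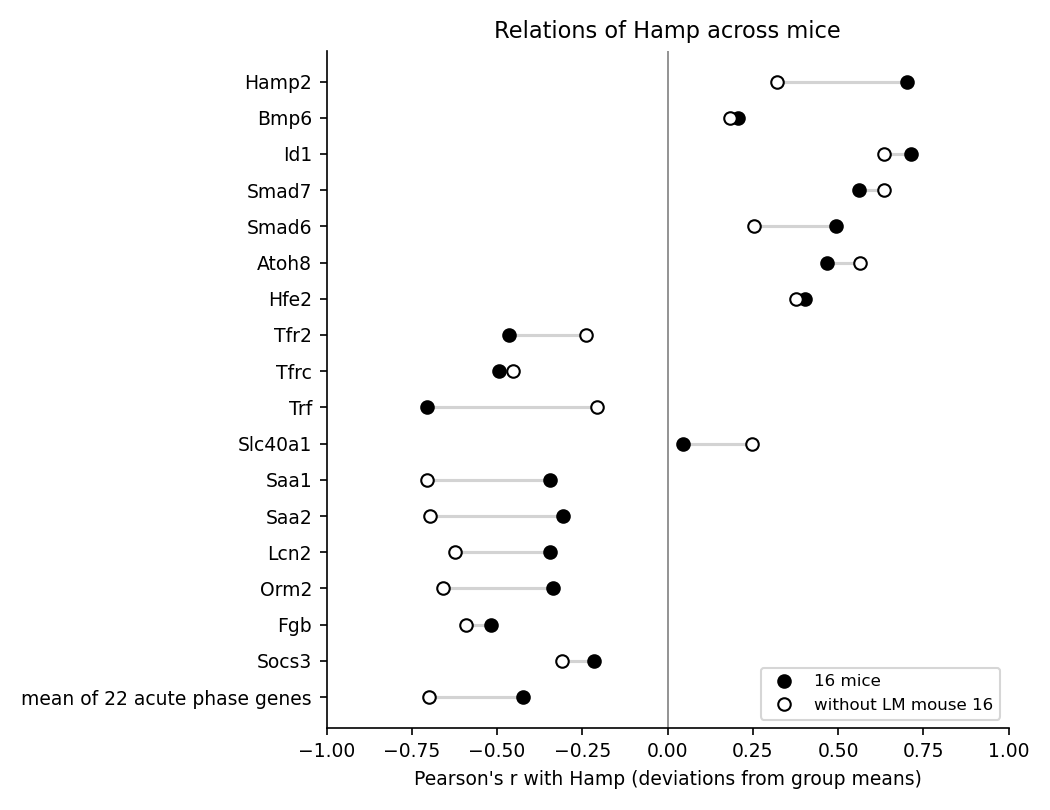
Pearson's r with Hamp (horizontal axis, -1 to 1) of 17 genes and of the mean of 22 acute phase genes, from deviations from group means; filled points use 16 mice and open points leave out mouse 16 of the LM group. Id1 and Smad7 stay above 0.5 in both, whereas Hamp2 moves from 0.70 to 0.32 and Trf from -0.70 to -0.21.

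The wider pathway lists gave no difference that passed after adjustment. Of 22 BMP and SMAD genes measured, Conv+OM(HFD) had 3 below the controls at an unadjusted limma p under 0.05, where 3.23% of all genes were called in either direction, and none above, with a median of -0.05 over the list beside 0.00 over all genes. They were Smad5, a SMAD that carries the BMP signal (log2 difference -0.22 ± 0.06, SE, exact permutation p = 0.00433), Bmp5, a ligand (-0.46 ± 0.15, exact p = 0.0303), and Neo1, which encodes neogenin, a partner of hemojuvelin (-0.17 ± 0.08, exact p = 0.00866). The Bmp5 difference was -0.80 on slide 1 and -0.02 on slide 2. Smad5 and Bmp5 had a limma p under 0.05 in all 11 fits that left out 1 mouse of these groups, and Neo1 in 3 of them, with a highest p of 0.155 for Neo1. Without mouse 25 the median of the list was 0.02. In Conv+LM against Conv+PBS the list again gave 3 lower and none higher, beside 3.94% of all genes called, namely Smad5 (-0.17 ± 0.06), Neo1 (-0.23 ± 0.08) and Bmpr1a, a BMP receptor (-0.26 ± 0.09). Smad5 ran from 2.39 to 2.54 in the Conv+PBS mice, from 2.18 to 2.32 in Conv+LM and from 2.09 to 2.31 in Conv+OM(HFD), so neither transplanted group overlapped with the controls they share, which held for 0.279% of all genes in Conv+LM and 0.235% in Conv+OM(HFD). No gene of the list passed after adjustment in either comparison, with an adjusted limma p of 0.9999 for those named against Conv+OM(HFD) and 0.997 for those named against Conv+LM. Between the transplanted groups, Bmp5 was lower in Conv+OM(HFD) by a log2 difference of -0.35 ± 0.16 (exact permutation p = 0.0794, unadjusted limma p = 0.0378). With the slide as a block limma p was 0.0524, and the difference was -0.49 on slide 1 and -0.11 on slide 2. The p stayed under 0.05 in 5 of 10 fits that left out 1 mouse and was above it without mice 14, 16 or 17 of Conv+LM and without mice 25 or 30 of Conv+OM(HFD), with a highest limma p of 0.117. No other gene of the list had an unadjusted limma p under 0.05 in that comparison.

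Among 19 genes of iron uptake, storage and use, the Conv+OM(HFD) group had Cp above the controls and Fbxl5 below them at an unadjusted limma p under 0.05, beside 3.23% of all genes. Cp encodes ceruloplasmin, the copper oxidase that loads iron onto transferrin, and its log2 difference was 0.26 ± 0.12 (SE; exact permutation p = 0.00433), with 6.99 as the lowest Conv+OM(HFD) and also the highest Conv+PBS value to 2 decimals. With the slide as a block the limma p of Cp was 0.0560, and its difference was 0.34 on slide 1 and 0.14 on slide 2. Leaving out any 1 of the 6 Conv+PBS mice, or mouse 25 or 29 of Conv+OM(HFD), took the limma p of Cp above 0.05, with a highest p of 0.142 and a lowest difference of 0.12. Fbxl5, the iron sensor that marks iron regulatory protein for degradation, differed by -0.24 ± 0.09 (exact permutation p = 0.026), and its limma p was above 0.05 without mouse 28 or 30 of Conv+OM(HFD), with a highest p of 0.0663. The median of the list was 0.02, and -0.01 without Conv+PBS mouse 1, and in the other 2 comparisons none of the 19 had an unadjusted p under 0.05. None of 9 genes of haem handling did in any comparison, with medians of 0.09, 0.00 and 0.04. Without mouse 25 the first and last of these became 0.02 and -0.0065.
In Conv+OM(HFD), 19 of 22 acute phase genes had means above those of the controls, with a median of 0.18 and 3 genes at an unadjusted limma p under 0.05, beside 3.23% of all genes. These were Lbp, the lipopolysaccharide-binding protein (0.56 ± 0.24, SE), Fga, a fibrinogen chain (0.32 ± 0.14), and Itih3, an inter-alpha-trypsin inhibitor chain (0.30 ± 0.14). On slide 1, which held mouse 25, these 3 differed by 1.06, 0.59 and 0.54, and on slide 2 by -0.05, -0.03 and -0.01. With the slide as a block Itih3 had a limma p of 0.0566. Mouse 25 had an acute phase mean of 6.01 against 4.30 to 4.77 in the other 4 mice of its group. Without it the rise was not seen: 11 of the 22 genes were above the controls and 11 below, none had a limma p under 0.05, the median was -0.0065 and the mean over the list was 4.64 against 4.67 in Conv+PBS. The limma p of Lbp and Fga was also above 0.05 without Conv+PBS mouse 2 or Conv+OM(HFD) mouse 30, that of Lbp without Conv+PBS mouse 3 and that of Fga without Conv+PBS mouse 5. Itih3 kept a p under 0.05 in 4 of 11 such fits. Without Conv+OM(HFD) mouse 26 the list moved the other way, with 7 genes higher at such a p and a median of 0.28. In Conv+LM, 9 of the 22 were higher than in Conv+PBS and 13 lower, with a median of -0.01 that ran from -0.07 to 0.02 over the fits without Conv+PBS mouse 2 and mouse 4. No inflammatory cytokine of the 4 measured, Tnf, Il1b, Ccl2 and Nfkb1 (a transcription factor listed with them), had an unadjusted p under 0.05 in any comparison.

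Markers of other cells moved with single mice. The neutrophil marker mean was -4.12 to 0.21 in Conv+OM(HFD), where mouse 25 was the highest, -4.04 to -3.21 in Conv+LM and -3.83 to 0.47 in Conv+PBS, where mouse 1 was the highest. Of the 5 neutrophil markers, 4 had means above the controls in Conv+OM(HFD), with a median of 0.10, and without mouse 25 all 5 were below them, with a median of -0.45. Without mouse 1 of Conv+PBS all 5 were above them, with a median of 0.67. In Conv+LM all 5 were below the controls, with a median of -0.93, and Mmp8, a neutrophil collagenase, had an unadjusted limma p of 0.0476 that became 0.0558 with the slide as a block. Without mouse 1 of Conv+PBS that median was -0.0030, 3 of the 5 were lower and Mmp8 had no such p. Mmp8 had one in 3 of the 11 fits that left out 1 mouse. Set against Conv+LM, the Conv+OM(HFD) mice had higher means of all 5, with a median of 1.13, which was 0.16 without mouse 25.
Sinusoidal endothelial markers, from the cells that make Bmp6, had a median of -0.21 in Conv+OM(HFD) and -0.15 in Conv+LM against Conv+PBS, with 6 of 7 lower in each, and between the transplanted groups a median of -0.07. The Conv+LM median ran from -0.24 without mouse 16 to -0.07 without mouse 17, and that between the transplanted groups from -0.12 without Conv+LM mouse 13 to 0.0014 without Conv+OM(HFD) mouse 29. One of them, Clec4g, a lectin of these cells, was lower in Conv+OM(HFD) by a log2 difference of -0.48 ± 0.18 (SE; exact permutation p = 0.0216, unadjusted limma p = 0.0166, and 0.0177 with the slide as a block). Without mouse 25 its limma p was 0.0544 and the median of the list -0.13. Without Conv+OM(HFD) mouse 26 that median was -0.26, and 4 of the 7 markers were lower at an unadjusted limma p under 0.05. Their part in the Bmp6 values was not tested. All 6 red blood cell markers had means above the controls in both transplanted groups, with medians of 0.19 and 0.21 and none at an unadjusted limma p under 0.05. Both depended on single mice. Without mouse 25 the mean of the 6 was 4.09 in Conv+OM(HFD), and without mouse 16 it was 4.08 in Conv+LM, against 4.10 in Conv+PBS, with medians of 0.03 and -0.03. Without mouse 2 of Conv+PBS, the lowest of all 16, the medians were 0.05 in each, with 4 and 5 of the 6 higher. Of 4 pancreas markers above background, 1 was higher and 3 lower in Conv+OM(HFD) against the controls (median -0.23) and 2 were higher and 2 lower in Conv+LM (median 0.11, from -0.02 without Conv+LM mouse 13 to 0.22 without Conv+LM mouse 14, and below 0 also without mouse 15 or 16). Against Conv+LM, 3 of the 4 were lower in Conv+OM(HFD) (median -0.23, -0.09 without Conv+LM mouse 13 and -0.38 without Conv+LM mouse 14). One of them, Cel, a pancreatic lipase, had an unadjusted limma p of 0.0391 that rose to 0.0563 with the slide as a block. Cel kept a limma p under 0.05 in 4 of 10 fits that left out 1 mouse, with a highest p of 0.125. Of 5 clock genes, which follow the time of day, none had such a p against the controls, and Per2 had one between the transplanted groups (-0.35 ± 0.14, SE, Conv+OM(HFD) minus Conv+LM), in 7 of 10 fits that left out 1 mouse. The clock gene medians were -0.19 and 0.09 against the controls and -0.15 between the transplanted groups. Without mouse 30 of Conv+OM(HFD) the first and last turned to 0.05 and 0.06, and without mouse 14 of Conv+LM the Conv+LM median was 0.01. Between mice, Arntl, a clock gene, ran from -3.28 in Conv+LM mouse 13 to 0.18 in Conv+OM(HFD) mouse 30. Dbp, an output gene of the clock, ran from 3.66 in Conv+OM(HFD) mouse 30 to 6.17 in Conv+PBS mouse 1. After subtracting group means, Arntl had r = 0.38 with Id1 and 0.15 with Hamp, and Dbp -0.48 and -0.18. The part of time of day in the relations across mice was not tested.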

How the data were processed

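Liver RNA of 16 mice was labelled with Cy3 and hybridised to 1-colour Agilent arrays. The authors scanned them with Feature Extraction 10.10.1.1, and the deposited files hold spot intensity, already background-corrected by that software, with flags for background, saturation and outliers. A deposited table of log2 values by the authors was reproduced as quantile-normalised log2 median signal (lowest r over arrays 0.999999) and served as an alternative. The authors' comparisons were run with limma. Here, log2 of the processed intensity minus the 75th percentile of the array's 59305 non-control spots was used, spots of a probe were averaged, and probes above background on at least 5 of 16 arrays were kept (30664 of 56605). Each gene was read from its brightest kept probe, which left 20404 of 37074 gene names. Groups were compared with limma 3.58.1 (R 4.3.3), all 16 arrays in one fit, with Benjamini-Hochberg adjustment over all genes. The limma script was tested on simulated data. Single genes were also tested with exact permutation tests, and relations with 100000 permutations within groups (scipy 1.17.1).

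The genes and lists were chosen with earlier results of these data known. The text names the 10 genes, the genes of the 52 relations, the genes of 5 pathway lists with an unadjusted limma p under 0.05 in any comparison, and the 5 genes most like Hamp and Id1; the cell type and clock lists are given by counts, medians and ranges, and their genes with such a p (Clec4g, Mmp8, Cel and Per2) were named after their values were seen. Arntl and Dbp were also named after their values were seen. Probe positions are from the scanner files (mm9) and promoters from RefSeq (GRCm38.p6). Of the 10 names, 9 matched a current symbol and Hfe2 matched as a synonym of Hjv. Unmatched per-sample columns numbered 0. Alternatives were normexp background correction, quantile normalisation, other filters, a slide block, array weights, other probe rules and leaving out each mouse. Leaving out outlier-flagged spots, and ranks and gene lists without single mice, were added after seeing the data.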

Additional observations from a re-analysis of the deposited data

Results flagged for a closer look

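Hamp in mouse 16 of the Conv+LM group was 5.67, far from the other 4 mice of its group, which lay between 7.56 and 7.88. The gap to the nearest of them was 0.854 of the range of the group. Hamp2 in mouse 4 of the Conv+PBS group was 2.98, where the other 5 lay between 4.62 and 5.17. There the gap was 0.751 of the range. Both gaps exceed Dixon's 95% critical value for the size of the group. Over 30 sets of a gene in a group, chance alone gives such a gap in about 1 in 20.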

How the results depend on the processing

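Slc40a1 in Conv+OM(HFD) against Conv+PBS was between 0.29 and 0.35 on the log2 scale under 11 other settings. Its unadjusted p was between 0.0161 and 0.0382, the highest from an ordinary t-test and the others from limma. The count of the 10 genes at an unadjusted p under 0.05 against Conv+PBS ran from 0 to 1 over fits that left out 1 mouse, in Conv+OM(HFD) and in Conv+LM (1 without Conv+LM mouse 14, for Bmp6). Between Conv+OM(HFD) and Conv+LM it also ran from 0 to 1 over such fits, and was 1, Slc40a1, with the mean of all kept probes and 1 with every probe on its own. Of 330 log2 differences under other settings, 307 kept their sign and side of the threshold, as did 429 of 480 that left out 1 mouse. Many of these fits could not move a log2 difference, so these counts overstate how stable it is. Leaving out a mouse of the group not compared, other filters, a fit of only the groups compared and the t-test kept its value.

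Changes of sign were seen in differences near 0. In Conv+OM(HFD) against Conv+PBS, Tfrc was -0.071 with array weights. In Conv+LM against Conv+PBS, Hamp was -0.0077 with normexp, -0.24 with array weights and -0.00059 without outlier spots. Tfrc was 0.0016 with normexp, 0.0061 with a slide block, 0.027 with array weights and 0.083 with the mean of probes. Tfr2 was 0.0088 with normexp, 0.020 with quantile normalisation, 0.015 with the authors' values, 0.031 with array weights and 0.032 with the mean of probes. Slc40a1 was -0.038 with the mean of probes. In Conv+OM(HFD) against Conv+LM, Hamp2 was 0.19 with array weights. Tfrc was -0.0036 with a slide block, -0.098 with array weights and -0.0095 with the mean of probes. Trf was -0.061 with quantile normalisation and -0.034 with the authors' values, and Bmp6 was 0.029 with normexp and 0.045 with array weights.

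Leaving out 1 mouse turned the sign of some log2 differences. In Conv+OM(HFD) against Conv+PBS the ranges were -0.12 to 0.11 for Tfrc, -0.042 to 0.28 for Smad7 and -0.047 to 0.14 for Hfe2. In Conv+LM against Conv+PBS they were -0.14 to 0.41 for Hamp, -0.89 to 0.036 for Hamp2, -0.13 to 0.19 for Tfrc, -0.047 to 0.039 for Tfr2, -0.034 to 0.076 for Trf, -0.011 to 0.14 for Slc40a1, -0.20 to 0.22 for Id1 and -0.46 to 0.0064 for Smad7. Between Conv+OM(HFD) and Conv+LM they were -0.18 to 0.38 for Hamp, -0.76 to 0.20 for Hamp2, -0.17 to 0.14 for Tfrc, -0.12 to 0.13 for Bmp6 and -0.18 to 0.0065 for Hfe2.

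Among relations, Hamp with Hamp2 was past an unadjusted p of 0.05 over all mice but not on slide 1 (r = 0.71) or without the 2 farthest mice (0.46), and ran from 0.32 to 0.80 leaving out 1 mouse. Hamp with Id1 was not past it on slide 1 (0.69), on slide 2 (0.72) or without the 2 farthest mice (0.45). Hamp with Smad7 came to pass it with normexp (0.59), the authors' values (0.59), the mean of probes (0.61), group means left in (0.56), slide 1 (0.93) and without the 2 farthest mice (0.55), and ran from 0.50 to 0.80 leaving out 1 mouse. Hamp with the acute phase mean no longer passed with the authors' values (-0.34), group means left in (-0.33), slide 1 (-0.64), slide 2 (-0.29) or without the 2 farthest mice (-0.45), and ran from -0.70 to -0.30 leaving out 1 mouse. Id1 with Smad7 did not pass on slide 1 (0.88) or slide 2 (0.65). The cause of these changes was not tested, though a slide holds 8 mice. No paired analysis was possible because the groups share no replicate number.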
